A study of Mus musculus with 6 samples.

Results

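*Car1*, *Atp1b2* and 7 further genes whose products sit in or work at the red cell membrane were followed in neonatal LSK cells with and without *Atg5*, a gene required to build autophagosomes. The 9 genes are *Car1*, *Car2*, *Atp1b2*, *Aqp1*, *Rhag*, *Rhd*, *Ermap*, *Slc4a1* and *Icam4*. They were taken by name from the 37074 gene names on the array, and every probe carrying one of these names was read, 13 in all. The choice was made with the contrast between the genotypes already known, so their differences are given below as a description, with no p-value for any of them. LSK cells (lineage-Sca-1+c-Kit+) are the bone marrow fraction that holds haematopoietic stem cells and early progenitors. They were sorted from mice on the C57BL/6 background at P6–8, and total RNA was read on 1-colour Agilent arrays with 60-base probes, 1 array per sample. The 3 control samples carry wild-type *Atg5* and the *VaviCre* transgene (*Atg5w/w*;*Vav*). The 3 *Atg5f/f*;*Vav* samples carry homozygous loxP-flanked *Atg5* and the same transgene, whose promoter drives Cre in haematopoietic cells, so both groups express Cre. Neither the labels nor the methods say whether a sample was 1 mouse or several, and p-values therefore measure only the spread between these arrays, which may be technical. The 6 arrays shared 1 slide and 1 scan. Control RNA was in the first row of that slide and *Atg5f/f*;*Vav* RNA in the second, so a difference between slide rows cannot be told apart from one between genotypes.

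The red cell takes up carbon dioxide, which carbonic anhydrases of the cytosol (*Car1* and *Car2*) hydrate to bicarbonate, and band 3 (*Slc4a1*) exchanges the bicarbonate for chloride across the membrane. Band 3 also anchors the membrane to its protein skeleton through ankyrin and stands in a complex with the Rh proteins (*Rhd* and the ammonia channel *Rhag*) and the Landsteiner-Wiener adhesion protein (*Icam4*). Aquaporin-1 (*Aqp1*) is the water channel of the red cell, *Ermap* encodes an immunoglobulin-like protein of the erythroid membrane, and *Atp1b2* encodes the β2 subunit of the sodium pump. *Car1* is switched on in early erythroid progenitors, whereas band 3, the globins and late haem enzymes accumulate as erythroblasts mature.

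Shown here are both probes of *Car1* and 1 of *Atp1b2*, the genes with the largest rises of the set, and a probe of *Ermap* whose reading differed from that of the gene's other probe. Each is printed as the scanner files give it, in lower case throughout.
Car1 probe from base 541: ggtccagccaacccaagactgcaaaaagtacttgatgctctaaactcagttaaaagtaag
Car1 probe from base 615: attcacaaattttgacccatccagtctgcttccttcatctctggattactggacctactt
Atp1b2 probe from base 968: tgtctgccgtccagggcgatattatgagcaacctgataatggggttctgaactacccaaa
Ermap probe from base 607: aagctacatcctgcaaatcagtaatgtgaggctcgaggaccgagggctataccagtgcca
Bases are counted along the transcript named for the probe, and a gene's probes are told apart below by this first base.

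RefSeq promoters (GRCm38.p6, from 250 bases before to 50 after each start) were at hand for 5 of the 9 genes, *Aqp1*, *Rhag*, *Rhd*, *Ermap* and *Icam4*. They are shown because erythroid genes are commonly bound at GATA and CACCC motifs by GATA1 and KLF1, whose own transcripts are described further on. The GATA motif was searched on both strands as AGATAA or its variant AGATAG, and with a leading T as TGATAA or its variant TGATAG. It was present in 4 of the 5 windows and in 29.8% of all 32851 promoters of this length. The CACCC box, searched as CCNCNCCC on both strands, was present in 3 of the 5 (*Aqp1*, *Rhd* and *Icam4*) and in 49.5% of all promoters. Each motif was searched without regard to the other, so matches may overlap. The lines below give the strand of the gene, with the GATA match (or its reverse complement) in capitals.
Rhag, chr17:40811098-40811143, plus strand, 31 bases before the start: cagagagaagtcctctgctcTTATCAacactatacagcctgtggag
Rhd, chr4:134864473-134864518, plus strand, 43 bases before the start: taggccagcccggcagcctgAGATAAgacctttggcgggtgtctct
Ermap, chr4:119190037-119190082, minus strand, 67 bases before the start: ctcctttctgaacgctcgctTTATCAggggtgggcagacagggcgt
Icam4, chr9:21029369-21029414, plus strand, 43 bases before the start: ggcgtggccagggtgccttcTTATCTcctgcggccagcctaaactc
A match says only that these letters are in the window, and binding was not measured here.

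Signal is given throughout as log2 intensity relative to the 75th percentile of the array's non-control spots, so that 0 is the level of that percentile and a difference of 1 is a doubling. In intensity units that percentile was 656.8, 651.7 and 746.2 for control arrays 1, 2 and 3, and 881.4, 698.4 and 620.3 for *Atg5f/f*;*Vav* arrays 1, 2 and 3. No spot was saturated, and 51.6% to 58.2% of probes were well above background. The number of arrays limits the precision. *Atg5* itself, read by 1 probe from base 2251 of its transcript, was at 1.10, 0.93 and 1.06 in control and 1.46, 1.51 and 1.74 in *Atg5f/f*;*Vav*. It was thus higher on the arrays labelled as deleted, by 0.54 ± 0.12 (SE; limma, adjusted p = 0.0209). Whether this probe lies within the deleted part was not determined, so it does not check the labels. *Vav1* differed by 0.07. Of the genes that define the gate, *Ly6a* (Sca-1) was higher by 1.57 (limma, adjusted p = 0.00623), and the brightest of 3 *Kit* probes was lower by 0.38 (limma, adjusted p = 0.0563). The other *Kit* probes were lower by 0.62 (limma, adjusted p = 0.023) and 0.67 (limma, adjusted p = 0.0207).

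Across the 9 genes, each read by its brightest probe, 7 were higher and 2 lower in *Atg5f/f*;*Vav*, with a median log2 fold change of 1.62 against −0.03 over all 20778 genes tested. *Atp1b2* and *Car1* showed the largest rises, *Rhag*, *Aqp1*, *Icam4* and *Rhd* were higher by more than 1, and *Slc4a1* was the one gene of the set that was clearly lower. All 9 genes and 13 probes passed the filter on dim probes, being well above background on 3 or more arrays. In the limma fit across all 32074 probes, with Benjamini-Hochberg adjustment and a threshold of 0.05, 6 of the 9 genes passed, where 34.1% of all genes tested did. Of these, 5 passed as higher (18.7% of all genes) and 1 as lower (15.3%). By probe, 9 of 13 passed (34.4% of all probes), 8 as higher (17.3%) and 1 as lower (17.1%). The 8 include the *Atp1b2* probe from base 968, which passed the filter through the *Atg5f/f*;*Vav* arrays alone, here and in the count that follows. Again by probe, 8 of 13 were higher without overlap between the groups, where 27.1% of all probes were, and 1 was lower without overlap, where 28.3% were. Since the genes were chosen on this contrast, nothing is read from these counts. The shares of all genes are also the background to the counts given below for each list. Without control array 1 or without control array 2 none of the 9 passed in either direction by its brightest probe, although the dimmer *Car1* probe did without control array 1. The same held for most of the array, since 330 and 251 probes passed there in place of 11024. With any other array left out, 4 to 6 passed as higher and 1 as lower.

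**Figure D1:**
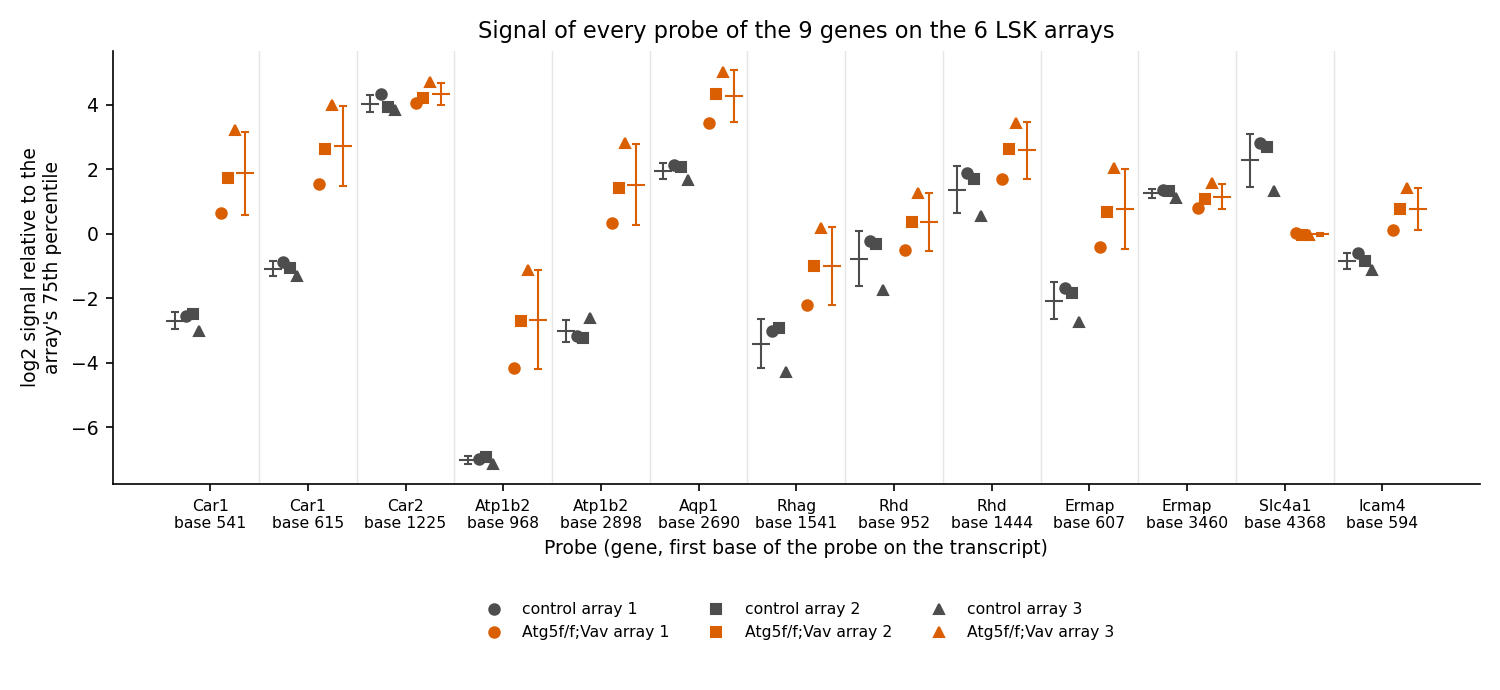
Log2 signal of each of the 13 probes, relative to the array's 75th percentile, on the 3 control arrays (grey) and the 3 Atg5f/f;Vav arrays (orange). Symbols mark the array number, and bars give the mean ± SD of each group (n = 3). The Car1, Atp1b2 and Aqp1 probes do not overlap between the groups, Slc4a1 lies lower on all Atg5f/f;Vav arrays, and Atg5f/f;Vav array 3 is the highest of its group for 12 of the 13 probes.

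Carbonic anhydrase 1 was read by 2 probes on chromosome 3 of mm9, both on the minus strand and in different exons. The probe from base 541 (chr3:14770171-14770230) was at −2.56, −2.50 and −3.0 in control and 0.65, 1.73 and 3.21 in *Atg5f/f*;*Vav*. All *Atg5f/f*;*Vav* arrays lay above all control arrays, with array 3 highest and array 1 lowest. The rise was 4.55 ± 0.58 (SE) on the log2 scale, or 23.4-fold, and was the 9th largest of 32074 probes. The probe from base 615 (chr3:14767486-14767545) was brighter, with −0.87, −1.06 and −1.32 in control and 1.53, 2.64 and 3.98 in *Atg5f/f*;*Vav*. Its rise was 3.80 ± 0.56, or 13.9-fold, and the *Atg5f/f*;*Vav* arrays kept their order. The range over all fits with 1 array left out was 3.88 to 5.16 for the first probe and 3.17 to 4.40 for the second, in both lowest without *Atg5f/f*;*Vav* array 3 and highest without array 1 of that group.

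*Car2*, the fast cytosolic carbonic anhydrase, lies on the same chromosome and showed no change of this size. Its probe (chr3:14900206-14900265) was at 4.34, 3.93 and 3.83 in control and 4.05, 4.22 and 4.70 in *Atg5f/f*;*Vav*. The groups overlapped. The difference was 0.29, with a 95% interval from −0.21 to 0.80, and it turned to −0.06 under quantile normalisation. In RefSeq the order along chromosome 3 is *Car13*, *Car1*, *Car3*, *Car2*. *Car13*, a cytosolic carbonic anhydrase, rose by 0.87 (limma, adjusted p = 0.0193), from −3.43, −3.54 and −3.22 to −2.87, −2.52 and −2.20. *Car3* was at −0.10 ± 0.12 (log2 fold change, SE). Of the 14 carbonic anhydrases other than *Car1* and *Car2*, 7 were tested, 5 were above background on no array, and the median change was 0.03. *Car13* was the one that rose, and none of this list passed as higher without control array 1 or without control array 2. *Car5b*, a mitochondrial carbonic anhydrase, was counted as lower. It read −3.61, −3.64 and −4.27 in control and was not well above background on any *Atg5f/f*;*Vav* array, at least 1.70-fold lower. It passed the filter on dim probes through the control arrays alone, so no p-value is given. Such a bound takes, for each array of the dim group, the higher of the probe's own signal and the lowest signal of any probe well above background.

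The sodium pump is an α catalytic subunit with a β subunit, and *Atp1b2* encodes one of the β isoforms. Its brighter probe, from base 2898 (chr11:69413253-69413312, minus strand), was at −3.18, −3.24 and −2.61 in control and 0.32, 1.43 and 2.82 in *Atg5f/f*;*Vav*. The groups were far apart and array 3 was again highest. This rise of 4.54 ± 0.58, or 23.2-fold, was the 10th largest of all probes. It ranged from 3.89 without *Atg5f/f*;*Vav* array 3 to 5.14 without array 1 of that group. The probe from base 968 (chr11:69416314-69416373) was not well above background on any control array, where it read −6.97, −6.92 and −7.15. It was at −4.17, −2.72 and −1.11 in *Atg5f/f*;*Vav*, at least 4.54-fold higher. Its measured difference of 4.34 thus rests on control signals that are only a bound, and it is 1.46 after normexp background correction.

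The other sodium pump genes showed nothing of this size. Of 14 listed, 10 were tested, with 1 higher and 2 lower past the threshold and a median of −0.20. In either direction 0 passed without control array 1, without control array 2 or without the filter on dim probes. The counts were 2 higher and 3 lower after normexp correction, and 0 and 3 when arrays were scaled to probes detected on all arrays. *Atp1b1*, the β1 subunit, fell by 0.85 (limma, adjusted p = 0.0233), from −1.74, −1.69 and −1.87 to −2.20, −2.67 and −2.99. *Fxyd7*, a small regulator of the pump, fell by 1.35 (limma, adjusted p = 0.0254) and was well above background on 2 of the 3 *Atg5f/f*;*Vav* arrays. The β subunit gene *Atp1b3*, given here after its values were seen, differed by 0.32 and did not pass.

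Among the channels and the Rh complex, the probe of *Aqp1* (chr6:55298480-55298539) read 2.12, 2.06 and 1.65 in control and 3.43, 4.32 and 5.02 in *Atg5f/f*;*Vav*. The groups did not overlap. The rise was 2.31 ± 0.38, or 4.96-fold, and ranged from 1.93 to 2.72 with 1 array left out. *Aqp1* is also a known endothelial gene, and the part of endothelial cells in its signal was not tested. Of 4 endothelial markers tested, none rose and 2 fell, 1 of them (*Kdr*) being well above background on 2 of the 3 *Atg5f/f*;*Vav* arrays. The median of the 4 was −0.94. *Emcn*, the brightest of them, was at 2.13, 1.99 and 2.05 in control and 1.39, 1.0 and −0.29 in *Atg5f/f*;*Vav*, and *Cdh5* was not above background on any array.

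*Rhag*, the ammonia channel that carries the Rh proteins to the surface, was read by 1 probe (chr17:40976929-40976988). It was at −3.03, −2.92 and −4.28 in control and −2.20, −1.0 and 0.19 in *Atg5f/f*;*Vav*. Control array 3 was the lowest of its group by more than 1, and *Atg5f/f*;*Vav* array 1 lay nearest to the controls. The rise was 2.41 ± 0.63, or 5.31-fold, from 1.81 without *Atg5f/f*;*Vav* array 3 to 3.01 without array 1 of that group. It is 1.6 after normexp background correction. *Rhd*, the partner of *Rhag*, had 2 probes on chromosome 4, and both overlapped between the groups. The probe from base 1444 (chr4:134452018-134452077) read 1.87, 1.70 and 0.54 in control and 1.69, 2.62 and 3.43 in *Atg5f/f*;*Vav*, and that from base 952 (chr4:134441242-134441301) read −0.23, −0.32 and −1.75 against −0.52, 0.37 and 1.27. The differences were 1.21 ± 0.51 and 1.14 ± 0.55, with ranges of 0.79 to 1.65 and 0.65 to 1.59 when 1 array was left out. On both, *Atg5f/f*;*Vav* array 1 lay among the control values.

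*Icam4*, which binds integrins on other cells, rose by 1.62 ± 0.33, or 3.08-fold (chr9:20834524-20834583). It read −0.60, −0.84 and −1.11 in control and 0.11, 0.77 and 1.43 in *Atg5f/f*;*Vav*, without overlap, and the change ranged from 1.29 to 1.95 with 1 array left out. *Icam1*, whose probes lie nearby on the same strand, differed by −0.17 and 0.23 and did not pass at either probe. *Ermap* gave different readings at its 2 probes. The probe from base 607 (chr4:118859754-118859813) was at −1.67, −1.85 and −2.74 in control and −0.41, 0.68 and 2.05 in *Atg5f/f*;*Vav*, a rise of 2.85 ± 0.61 or 7.23-fold, from 2.22 to 3.45 with 1 array left out. The brighter probe from base 3460 (chr4:118849093-118849152) was at 1.36, 1.32 and 1.10 against 0.79, 1.08 and 1.57, a difference of −0.11 ± 0.21. Which of them follows the *Ermap* transcript was not determined. With the probes of each gene averaged, *Ermap* is at 1.37.

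*Slc4a1*, band 3, went the other way. It was at 2.80, 2.69 and 1.31 in control and 0.03, −0.04 and −0.05 in *Atg5f/f*;*Vav* (chr11:102210256-102210315). The *Atg5f/f*;*Vav* arrays agreed within 0.1 of each other, and control array 3 lay between them and the other controls. The fall was 2.29 on the log2 scale (SE 0.38), and the gene was 4.88-fold lower. With 1 array left out the change ranged from −2.76 to −2.02.

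**Figure D2:**
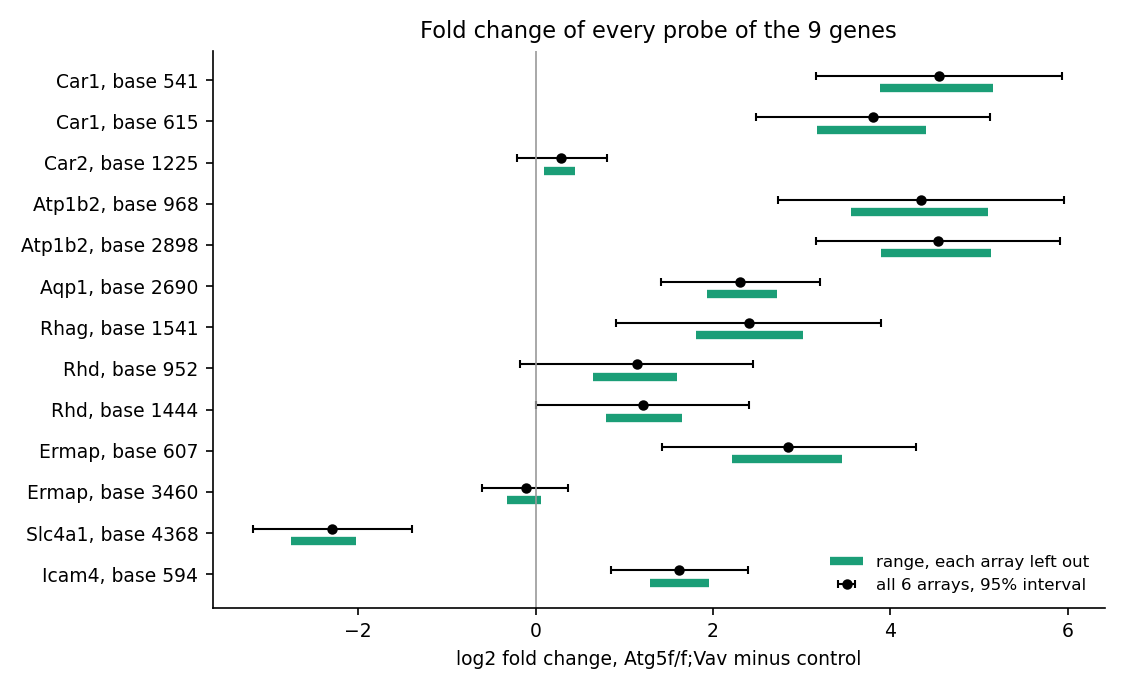
Log2 fold change (Atg5f/f;Vav minus control) of each of the 13 probes, with black points and bars for the estimate and its 95% interval over all 6 arrays, and green bars for the range when each array is left out in turn. Car1 and Atp1b2 lie at 3.80 to 4.55, Slc4a1 at −2.29, and the 2 Ermap probes at 2.85 and −0.11.

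The arrays within a group came in much the same order for most of these genes. By the brightest probe, 8 of the 9 were highest on *Atg5f/f*;*Vav* array 3 within that group, where 44.7% of all genes tested were, and 8 were lowest on *Atg5f/f*;*Vav* array 1, where 39.1% were. Within control, 8 of 9 were lowest on array 3, where 34.7% of all genes were. Between *Atg5f/f*;*Vav* arrays 1 and 3, *Car1* ran from 1.53 to 3.98 and *Aqp1* from 3.43 to 5.02. The 9 genes share these 6 RNA samples, so their common order is 1 observation and not 9.

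The genes most like *Car1* over the 6 arrays, after subtraction of each gene's control mean, were *Asb17*, *Ces2g*, *1700016F12Rik*, *Sphk1* and *Prss50*, with root mean square differences of 0.12 to 0.25 on the log2 scale. *Sphk1*, the kinase that makes sphingosine 1-phosphate, read −0.69, −1.11 and −1.01 in control and 1.97, 3.19 and 3.89 in *Atg5f/f*;*Vav*. Nearest to *Atp1b2* were *Zbp1*, *Csrp3*, *Prss50*, *Mt2* and *Iigp1*, at 0.37 to 0.50. *Zbp1*, a sensor of Z-form nucleic acid, read −2.15, −2.44 and −2.12 against 1.24, 1.65 and 3.02. *Mt2*, a metallothionein, read 1.41, 1.58 and 1.03 against 4.05, 5.49 and 7.04. All 6 arrays entered each distance, which keeps the difference between groups and so favours genes with a rise of similar size. Those rises were 3.6 to 4.01 for the genes nearest to *Car1* and 4.01 to 4.76 for those nearest to *Atp1b2*. *Prss50* was near to both genes. The control values of *Asb17* (−7.11, −7.07 and −7.31) and of *Csrp3* (−7.11, −7.08 and −6.52) lie under the lowest signal that was well above background on a control array, −5.0 to −4.77. Their distances therefore rest on background in control. *1700016F12Rik* read −5.19 on control array 3, under that array's lowest such signal of −5.0.

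Of 20 other genes of the red cell membrane and its skeleton, 19 were tested, of which 8 rose and none fell past the threshold (18.7% and 15.3% of all genes), with a median of 0.64. *Stom*, stomatin of the membrane's lipid rafts, rose by 1.35 (limma, adjusted p = 0.0168), from −1.18, −1.33 and −1.24 to −0.37, −0.03 and 0.71. *Mpp1*, the p55 protein of the skeleton junctions, rose by 1.10 (limma, adjusted p = 0.0466), although its other probes differed by 0.28 and 0.37. *Slc14a1*, the urea transporter that carries the Kidd antigen, rose by 1.06 (limma, adjusted p = 0.0174), from 0.63, 0.65 and 0.66 to 1.27, 1.71 and 2.15. The other *Slc14a1* probe differed by 0.54. The count of 8 was 4 with quantile normalisation, 3 when arrays were scaled to probes detected on all arrays, and 0 without control array 1 or without control array 2. Scaling to detected probes moved the median of all probes from −0.06 to −0.27 and the split of calls from 5540 higher and 5484 lower to 3371 higher and 10088 lower.

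*Ank1*, the ankyrin that ties band 3 to the membrane skeleton, named after its values were seen, was at −0.80, −0.94 and −2.35 in control and −0.73, 0.33 and 1.70 in *Atg5f/f*;*Vav*. The groups did not overlap, and the difference of 1.80 ± 0.66 did not pass (limma, adjusted p = 0.073).

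Relatives of *Aqp1*, the Rh genes, *Slc4a1* and *Icam4* numbered 24, of which 14 were tested and 8 were above background on no array. Past the threshold 4 were higher and 1 lower, with a median of 0.05. Without control array 1 or without control array 2 the counts were 0 and 0. *Slc4a8*, a sodium-coupled bicarbonate transporter, was counted as higher, with −4.73, −5.45 and −3.08 in control and −1.88, −2.30 and −1.58 in *Atg5f/f*;*Vav*. It was well above background on 1 of the 3 control arrays and passed the filter through the *Atg5f/f*;*Vav* arrays, so no p-value is given, and another of its probes differed by 0.09. *Aqp11* rose by 1.58 (limma, adjusted p = 0.0154) and its other probe by 1.51. *Aqp9*, a channel for water and glycerol, rose by 0.97 (limma, adjusted p = 0.0328), and its other probe differed by −0.17. *Icam2*, the fourth, outside the rule for naming and named after its value was seen, rose by 0.75 (limma, adjusted p = 0.0221). *Slc4a3*, an anion exchanger, the one counted as lower, was not well above background on any *Atg5f/f*;*Vav* array, at least 1.73-fold lower. It too passed the filter through the control arrays alone. *Rhbg* and *Rhcg*, the Rh glycoproteins of other tissues, were too dim to be tested.

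**Figure D3:**
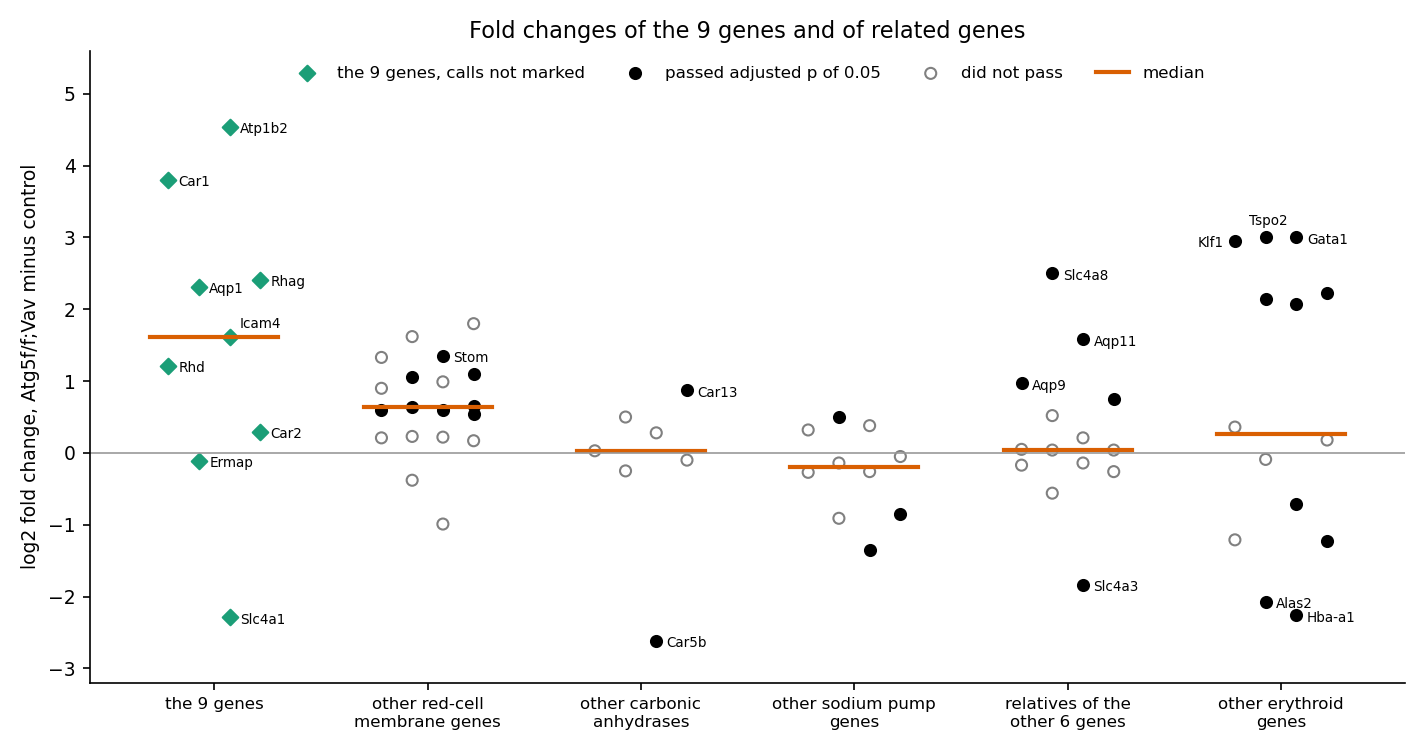
Log2 fold change (Atg5f/f;Vav minus control) by the brightest probe of each gene tested, for the 9 genes (green, calls not marked) and 5 lists of related genes, with the median of each list as an orange line. Filled black points passed an adjusted p of 0.05 in the limma fit and open points did not. The medians lie at 1.62 for the 9 genes, 0.64 for other red cell membrane genes, 0.27 for other erythroid genes, and between −0.20 and 0.05 for the remaining lists.

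Other erythroid genes changed in both directions. Of 14 listed and tested, 6 rose (18.7% of all genes), 4 fell (15.3%) and 4 did not pass, with a median of 0.27. *Gata1*, the erythroid master factor, rose by 3.0 (limma, adjusted p = 0.0121), from 0.87, 0.38 and 0.95 to 2.90, 3.73 and 4.56. *Klf1*, which drives globin and membrane genes, rose by 2.95 (limma, adjusted p = 0.0159), and *Tspo2*, an erythroid membrane protein of the cholesterol pathway, by 3.0 (limma, adjusted p = 0.0159). *Epor*, the erythropoietin receptor, rose by 2.08 (limma, adjusted p = 0.0181), from 0.73, 0.53 and 0.48 to 1.70, 2.69 and 3.59. *Tfrc*, the transferrin receptor, rose by 2.15 (limma, adjusted p = 0.0114), and its other probe differed by 1.42. The sixth, *Gfi1b*, is outside the rule for naming.

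Those that fell were *Hba-a1*, *Alas2*, *Hbb-bt* and *Slc25a37*, the last named after its value was seen. *Hba-a1*, α-globin, went from 8.90, 8.84 and 7.72 to 6.00, 6.42 and 6.28, and fell by 2.26 on the log2 scale (limma, adjusted p = 0.0136). It has a near-identical copy, so its probe may read both. *Alas2*, the first enzyme of haem synthesis in red cells, fell by 2.07 (limma, adjusted p = 0.0168), from 1.66, 1.48 and 0.13 to −1.31, −0.69 and −0.93. *Hbb-bt*, a β-globin with a close copy of its own, fell by 1.22 (limma, adjusted p = 0.0147), and its other probe differed by −1.92. Control array 3 was the lowest control for *Alas2* and both globins, as it was for *Slc4a1*. Without control array 1 or without control array 2 no gene of this list passed.

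**Figure D4:**
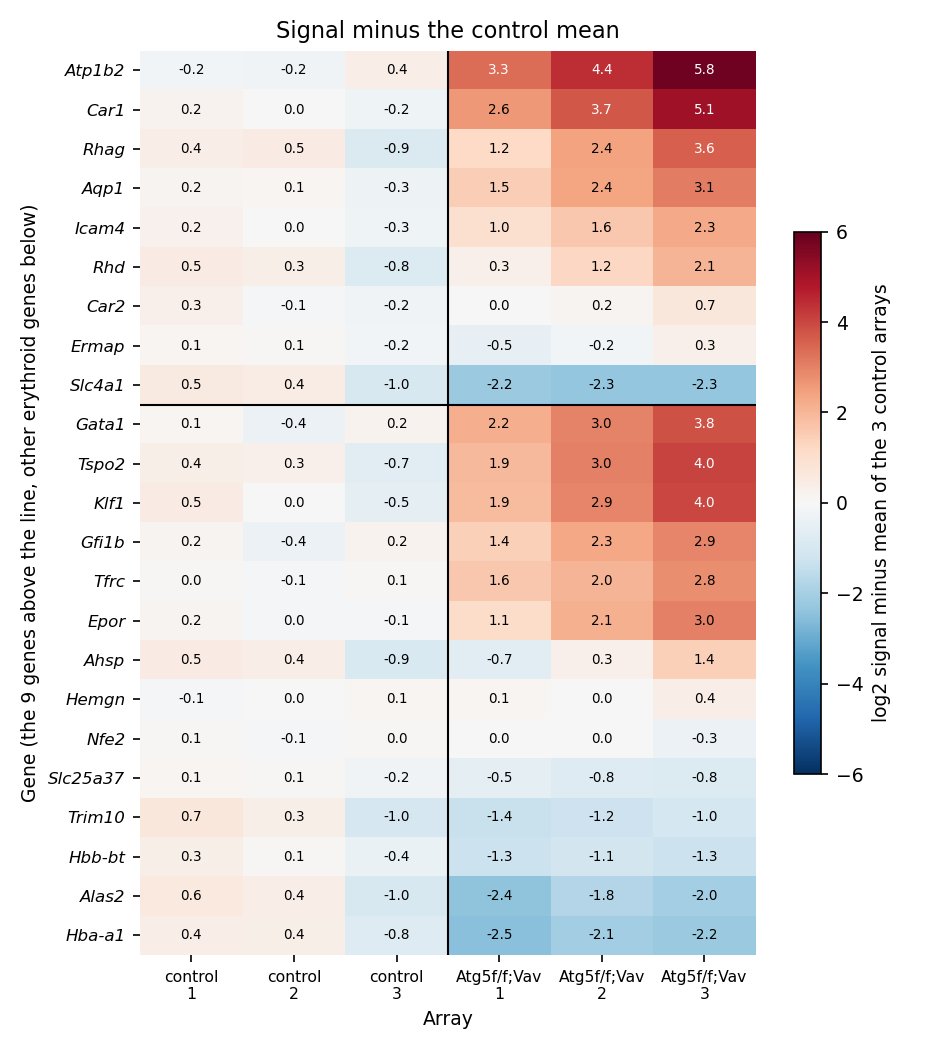
Log2 signal minus the mean of the 3 control arrays, for the 9 genes (above the line) and the other erythroid genes (below it), by the brightest probe, on each of the 6 arrays. Red is higher and blue lower than the control mean. On the Atg5f/f;Vav arrays Car1, Atp1b2, Gata1 and Klf1 are higher on all 3, most on array 3, while Slc4a1, Alas2 and Hba-a1 are lower on all 3.

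In bulk RNA, fewer cells of a type and less RNA per cell cannot be told apart. Markers of mature and other cells therefore stand here as measured, and their part in the values of the 9 genes was not tested. Over the whole erythroid list the summed signal was 796, 731 and 426 in control and 237, 294 and 337 in *Atg5f/f*;*Vav*. Such sums are on a linear scale with the 75th percentile as 1. *Hba-a1* was brightest, and none of the 14 was below background throughout. On the control arrays most of this sum is the globins *Hba-a1* and *Hbb-bt*, which fell. The sum therefore does not follow the 6 listed genes that rose. The lineage antibodies of the sort included Ter119, which marks maturing erythroblasts. Of 7 stem cell markers, none rose and 6 fell, with a median of −1.56, *Meis1* brightest, and summed signals of 49.5, 50.2 and 46.0 against 28.8, 27.7 and 15.2. *Atg5f/f*;*Vav* array 3, the highest for *Car1* and *Atp1b2*, was thus the lowest for the stem cell sum.

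Stromal markers were uneven within control. Of 5 tested, none was called higher and 3 were called lower, 1 of these (*Col1a1*) having passed the filter through the control arrays alone, with a median of −2.59, *Sparc* brightest, *Col3a1* and *Lum* too dim to be tested, and summed signals of 2.87, 31.3 and 24.4 in control and 1.55, 1.01 and 1.70 in *Atg5f/f*;*Vav*. The endothelial sum was 5.05, 4.57 and 4.69 against 3.14, 2.49 and 1.16. Of 8 megakaryocyte markers, a lineage close to the erythroid one, 3 were called higher and 3 lower, 1 of these (*Ppbp*) having passed the filter through the control arrays alone, with a median of 0.09, *Gp9* brightest, and sums of 9.45, 8.34 and 7.95 against 7.41, 7.57 and 7.64. No megakaryocyte marker passed without control array 1 or without control array 2. Without control array 3, or without the filter on dim probes, 3 were called higher and 1 lower.

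Neutrophil markers numbered 8, with 3 higher (*Mpo*, *Prtn3* and *Ctsg*) and 4 lower (*Ltf*, *Camp*, *Ngp* and *S100a8*), named after their values were seen. The median was −0.71, with *Mpo* brightest and sums of 139, 135 and 224 against 264, 221 and 274. The median and the sums thus differ in direction. For mast cells, basophils and eosinophils 1 of 7 rose and none fell (median 0.26), with *Gata2* brightest and sums of 13.5, 10.8 and 16.9 against 17.0, 13.8 and 15.8. One B cell marker of 7 was called higher (*Cd79a*, well above background on 1 control array and on all *Atg5f/f*;*Vav* arrays) and none lower (median 0.68), with *Cd79b* brightest and sums of 11.9, 9.19 and 12.3 against 17.9, 10.7 and 10.8. No T and NK cell marker of 6 tested passed (median −0.16), with *Nkg7* brightest and sums of 12, 11.5 and 15.6 against 16.8, 14.7 and 12.9. None of 4 macrophage markers tested passed (median 0.13), with *Csf1r* brightest and sums of 4.75, 5.80 and 6.31 against 6.65, 6.58 and 6.52, and none of 3 osteoclast markers (median −0.26), with *Acp5* brightest and sums of 5.12, 3.45 and 4.94 against 4.73, 2.74 and 2.41.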

How the data were processed

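Total RNA of sorted LSK cells was hybridised by the authors to 1-colour Agilent arrays, 3 control and 3 *Atg5f/f*;*Vav*. The deposited scanner files hold 1 intensity per spot, corrected for background by Agilent Feature Extraction 12.0.3.1 and not scaled between arrays. The authors' table, also deposited, gives a normalised signal, each array's intensity divided by its 75th percentile over all spots, and was used as an alternative. Probe coordinates are those of the files, on mm9.

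Log2 intensity was scaled by subtracting the 75th percentile of the array's 59305 non-control spots. The 64 to 81 spots per array with an outlier flag were left out, and spots of a probe were averaged, giving 56605 probes. Probes had to be well above background on 3 or more arrays, which left 32074, and these were compared in R 4.3.3 by limma 3.58.1 (lmFit, then eBayes). The test was 2-sided, and p-values were adjusted after Benjamini-Hochberg over the 32074 probes, with a threshold of 0.05. A gene is represented by its brightest probe.

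The 9 genes and all lists were chosen with earlier results of these data known. Genes named are the 9 with every probe, up to 3 rises and 3 falls past the threshold per list of related or erythroid genes, *Gata1*, *Klf1*, *Epor* and *Tfrc*, the 5 genes nearest to *Car1* and to *Atp1b2*, and *Atg5*, *Vav1*, *Kit* and *Ly6a*. Any other gene named (a relative, a neighbour, or a list's brightest or dim marker) was chosen after its values were seen, and some genes of these lists are not reported here by name. The lists are other red cell membrane genes, carbonic anhydrases, sodium pump genes, relatives of the other genes, and markers of stem cells, erythroid cells, megakaryocytes, B cells, T and NK cells, neutrophils, macrophages, mast cells with basophils and eosinophils, osteoclasts, endothelium and stroma.

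Alternatives were each array left out, the replicate number as a block, the methods' t-test, an intensity trend in eBayes, normexp correction (offset 50), the deposited signal, quantile normalisation, scaling to probes detected on every array, other filters on dim probes, outlier spots kept, and probes of a gene averaged.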

Additional observations from a re-analysis of the deposited data

How the results depend on the processing

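The median log2 fold change of the 9 genes stayed within 1.29 to 1.95 under every alternative run. *Car1*, *Atp1b2*, *Aqp1*, *Rhag*, *Rhd* and *Icam4* were higher, and *Slc4a1* lower, in each of them. *Car2* turned to −0.06 under quantile normalisation. *Ermap* moved from −0.11 to 1.37 with the mean of its probes, and to 0.06 without *Atg5f/f*;*Vav* array 1. *Atp1b2* was 3.63 after normexp correction, and its probe from base 968 went from 4.34 to 1.46. The methods' t-test with Benjamini-Hochberg adjustment called 0 probes in all, higher or lower, and so 0 of the 9 genes, 0 other membrane genes and 0 erythroid genes. At an unadjusted p under 0.05 that t-test called 13541 probes (42.2%) and, of the 9 genes, 5 higher and 1 lower. Since the 9 genes were chosen with the contrast known, nothing is read from their counts in this section. Without the filter on dim probes 4538 probes passed (2324 higher, 2214 lower) and 2 other membrane genes rose. Of the 9 genes 4 then passed as higher, *Rhag* not among them, while after normexp correction 6 did, *Rhd* among them. Scaling to detected probes gave 3371 higher, 10088 lower and 3 other membrane genes. Other membrane genes that rose numbered 4 under quantile normalisation and 5 by the mean of probes. The cause of these differences was not tested. With 1 array left out, probes passing ranged from 251 to 10303 (155 to 4962 higher, 96 to 5341 lower), the 9 genes from 0 to 6 higher and 0 to 1 lower, other membrane genes from 0 to 12 higher, and erythroid genes from 0 to 6 higher and 0 to 5 lower. All the lowest values came without control array 1 or 2.

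Same-numbered arrays did not deviate together in every pair (correlations −0.065, 0.189 and 0.111), so the numbers were not taken to pair them. With the replicate block 10173 probes passed, and 4 of the 9 genes as higher, *Rhag* not among them. With 1 slide and 1 scan, neither could be fitted as a block. The *Atp1b2* probe from base 968 has only a bound in control, since it was not well above background there.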
